A study of Mus musculus with 4 samples.

Results

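A set of 10 genes of the tumour necrosis factor (TNF) system was followed in chromatin maps of H3K9ac, the acetylation of lysine 9 on histone H3, which marks active promoters. They were the ligand genes Tnf, Lta, Ltb, Tnfsf10 and Fasl, the receptor genes Fas, Tnfrsf1a, Tnfrsf1b and Tnfrsf10b, and the adaptor gene Fadd, out of 21887 protein-coding genes in all. Every H3K9ac peak that overlapped the RefSeq span of such a gene, extended by 10 kb on either side and called the gene window here, was taken. This gave 22 of the 16419 peaks without the drug and 51 of the 103336 peaks with it. The windows of Tnf, Lta and Ltb overlap, so the 10 windows form 8 separate regions.

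The cells were BM-derived MDSC of the mouse, that is, myeloid-derived suppressor cells grown from bone marrow, which dampen T cell responses. Senescence had been induced in them in vitro. Both conditions carried the label CM, which the labels do not expand. One of them also received romidepsin, an inhibitor of histone deacetylases. Each condition had 1 immunoprecipitated library and 1 input library, and the input libraries were not analysed here. Strain, dose and duration are not given in the sources used here. With 1 library per condition there is no replicate error and no test, so all values stand side by side and no difference has a replicate check.

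TNF family ligands are mostly trimeric and act on receptors at the cell surface. TNF binds the receptors encoded by Tnfrsf1a and Tnfrsf1b, lymphotoxin is built from the products of Lta and Ltb, Fas ligand binds Fas, and TRAIL, the product of Tnfsf10, binds the receptor encoded by Tnfrsf10b. Fas, Tnfrsf1a and Tnfrsf10b encode death receptors, which carry an intracellular death domain. FADD couples such receptors to caspase-8 and so to apoptosis, whereas TNF signalling through its receptors also activates NF-κB. Activated macrophages are a main source of TNF, and Fas ligand is typical of activated T and natural killer cells.

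In CM, H3K9ac peaks lay at the starts of most of these genes. A peak within 1 kb of the gene start was present at 8 of 10 genes in CM, against 50.2% of all protein-coding genes, and at 9 of 10 with romidepsin, against 63%. Lta had such a peak in the romidepsin list only, as did 12.9% of all genes. Fasl had none in either list, as did 37% of all genes. The CM count depended on the threshold: where −log10 q had to reach 5, it was 3 of 10 (Fas, Tnfrsf1a and Tnfrsf1b), against 30.5% of all genes, and the CM start peaks of Tnf, Ltb, Tnfsf10, Tnfrsf10b and Fadd were not kept. With romidepsin it was 7 of 10, against 46.3% of all genes, without those of Lta and Tnfrsf10b. A peak anywhere in the window was present at 9 of 10 genes in CM (58.8% of all genes) and at 10 of 10 with romidepsin (72.2% of all genes). Fasl was the gene with window peaks in romidepsin only, as were 13.4% of all genes.

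The covered share of the windows differed widely among the genes. Peaks covered 10.1% of the 306918 bp of joined windows in CM and 53.3% with romidepsin, a ratio of 5.29. Over the whole lists the covered sequence was 8.70 times as large with romidepsin, so more covered sequence was not particular to these genes. That ratio also counts peaks outside gene windows and peaks without a CM peak, so it does not measure how far peaks widened. Among genes with a start peak in both lists, the romidepsin peak was at the median 5.43 times as long as the CM peak here. Over all such genes the median was 3.36. The 5 windows with at least 50% of their length under romidepsin peaks were those of Tnf, Lta, Ltb, Tnfrsf1a and Tnfrsf1b, and 17.3% of all gene windows had such cover. None of the 10 windows reached that share in CM, as did only 0.0274% of all gene windows. The median covered share was 12.9% in CM and 67.4% with romidepsin over the 10 windows, 3 of which share sequence, against 1.46% and 12.0% over all gene windows. Long genes have longer windows with a lower share of start regions, and the median window was 30283 bp here and 37168 bp over all genes. The number of reads per library is not given in the sources used here. A deeper library yields more and wider peaks, so the depth and the drug cannot be told apart in these widths. When the romidepsin list was reduced to its 16419 strongest peaks, 39.8% of the joined windows remained covered, and the median over all gene windows was 5.09%. In that setting a peak was present at the starts of 9 of the 10 genes and of 50.7% of all genes.

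**Figure D1:**
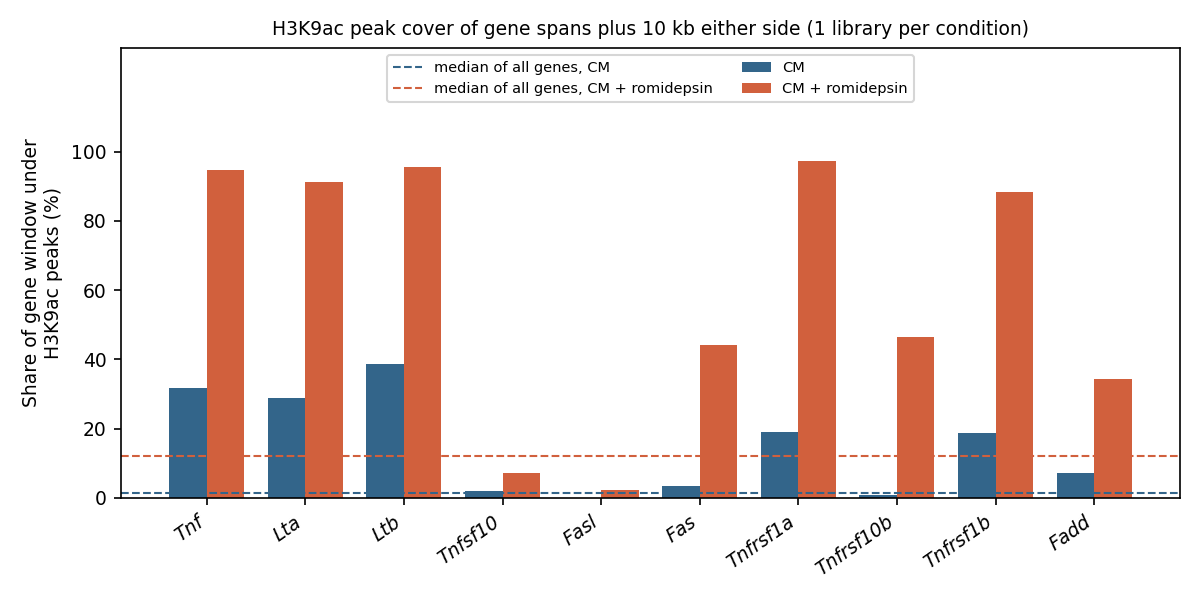
Share of each gene window (gene span plus 10 kb on either side, in percent) under H3K9ac peaks in CM and in CM with romidepsin, 1 library each, with the median of all 21887 gene windows as dashed lines. The 3 genes of the TNF cluster, Tnfrsf1a and Tnfrsf1b stand between 88.5% and 97.2% with romidepsin, whereas Tnfsf10 and Fasl lie below the median of all genes.

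The compact cluster of Ltb, Tnf and Lta on chromosome 17 was the most densely marked of these regions in CM. Its genes lie side by side, with Ltb read in one direction and Tnf and Lta in the other. The 250 bases before the starts of Tnf (chr17:35202008-35202257, minus strand) and Ltb (chr17:35194257-35194506, plus strand) are shown because the CM peaks meet the 2 starts differently. They are from RefSeq on GRCm38.p6, the assembly that mm10 represents, written 5′ to 3′, with the bases inside a CM peak in capitals.
Tnf: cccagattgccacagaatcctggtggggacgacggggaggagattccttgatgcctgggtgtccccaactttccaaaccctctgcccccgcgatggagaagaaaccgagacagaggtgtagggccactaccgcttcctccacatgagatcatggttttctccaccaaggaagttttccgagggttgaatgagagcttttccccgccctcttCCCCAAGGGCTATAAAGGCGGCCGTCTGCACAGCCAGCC
Ltb: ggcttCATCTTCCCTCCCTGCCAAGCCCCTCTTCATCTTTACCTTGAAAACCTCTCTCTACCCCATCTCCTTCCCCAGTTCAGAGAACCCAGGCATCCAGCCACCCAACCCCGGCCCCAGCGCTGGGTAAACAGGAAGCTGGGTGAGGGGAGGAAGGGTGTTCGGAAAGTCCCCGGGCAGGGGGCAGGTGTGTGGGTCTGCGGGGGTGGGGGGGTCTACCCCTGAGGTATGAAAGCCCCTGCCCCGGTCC
At Tnf the capitals take up only the last 39 of the 250 bases, and at Ltb they take up 245.

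Tnf, the gene of the inflammatory cytokine itself, had a CM peak laid almost exactly over its transcribed span. The peak ran from 35199355 to 35202046 (2692 bp), the gene from 35199367 to 35202007 (2641 bp). It thus reached 39 bp upstream of the start and covered 100% of the gene. Its fold enrichment over the peak caller's background was 5.37, higher than 57.3% of the CM peaks, with a −log10 q of 4.87. With romidepsin the peak at Tnf ran from 35198067 to 35202068 (4002 bp) with a fold of 4.68 and a −log10 q of 8.72. That fold was higher than 99.6% of the romidepsin peaks. The folds of the 2 lists rest on different backgrounds and are not a measure of gain or loss: the romidepsin fold was the lower one at all 8 genes with a start peak in both lists, and at 97.4% of such genes overall.

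The upstream edge of the Tnf peak lay at nearly the same place in both lists. With romidepsin it was 61 bp upstream of the start, 22 bp beyond the CM edge, and a gap of 369 bp separated it from the next romidepsin peak upstream, which covered Lta. The downstream edge lay 1288 bp beyond that of CM, with a gap of 575 bp to the romidepsin peak over Ltb. The romidepsin peak was 1.49 times as long as the CM peak, the smallest ratio of the 8 genes with both. At the other 7 genes it was at least 2 times as long, which held for 89.2% of all genes with a start peak in both lists. This low ratio rested on how the peaks were split. When peaks closer than 1 kb were merged, Tnf, Lta and Ltb lay under 1 romidepsin peak of 112205 bp, while the CM peak at Tnf stayed at 2692 bp.

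Ltb encodes the membrane-bound lymphotoxin subunit. Its CM peak ran from 35194262 to 35196682 (2421 bp, fold 5.10, −log10 q 4.14) and covered 100% of the 1799-bp gene. The romidepsin peak over Ltb ran from 35158464 to 35197491. It was 39028 bp long with a fold of 3.95, and only 26 romidepsin peaks were longer. It reached from Prrc2a across Aif1 and Lst1 to Ltb and took in 7 separate CM peaks, which covered 27.4% of it. This long peak overlapped 4 genes, so it cannot be assigned to Ltb alone.

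Lta, which encodes the secreted lymphotoxin subunit, had no CM peak over any of its 2414 bp. The nearest CM peak to its start was that of Tnf, 3305 bp away, and a further CM peak (35209440 to 35210793, fold 3.65, −log10 q 1.75) lay upstream of the gene. With romidepsin a peak of 9292 bp (35202438 to 35211729, fold 3.55, −log10 q 4.96) covered the whole gene and took in that upstream CM peak. Lta was thus the only one of the 3 cluster genes whose start peak was in the romidepsin list alone. The peak was kept among the 16419 strongest romidepsin peaks and lost where −log10 q had to reach 5.

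In CM, peaks covered 38.6% of the Ltb window, 31.8% of the Tnf window and 28.9% of the Lta window. These shares were higher than those of 99.8%, 99.3% and 99.0% of all gene windows. With romidepsin they were 95.7%, 94.6% and 91.4%, higher than 99.4%, 99.3% and 98.7% of all gene windows. The order of the 3 genes was the same in both lists, but the windows overlap and the values are not independent.

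**Figure D2:**
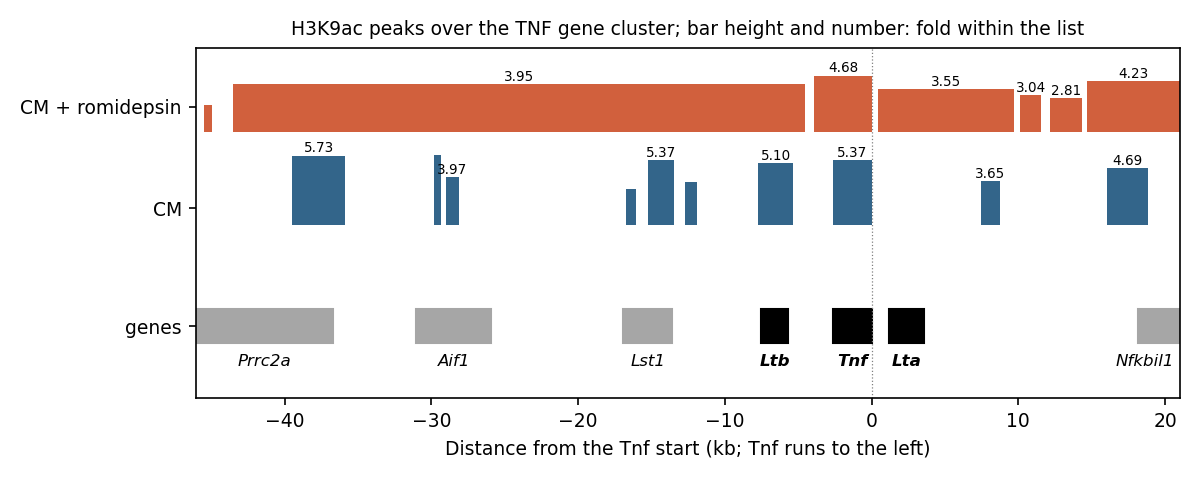
H3K9ac peaks of both lists around the TNF gene cluster against the distance from the Tnf start in kb, with bar height and number giving the fold within each list and genes drawn below (cluster genes in black). In CM separate peaks sit over Ltb and Tnf and none over Lta, whereas with romidepsin long peaks cover all 3 genes with short gaps, 369 bp long just upstream of Tnf.

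The 2 death ligand genes outside the cluster had the lowest covered shares of the 10 windows with romidepsin. In CM, Fasl was the lowest with no peak, followed by Tnfrsf10b and then Tnfsf10. Tnfsf10, the TRAIL gene on chromosome 3, had a single CM peak of 774 bp (27316676 to 27317449, fold 5.07), which straddled the start from 401 bp upstream to 372 bp downstream. The romidepsin peak there was 2761 bp long (27315293 to 27318053, fold 3.53), 3.57 times as long. A second romidepsin peak of 306 bp (fold 2.74) lay upstream. The remainder of the 22589-bp gene was free of peaks, and peaks covered 1.65% of the gene in CM and 4.33% with romidepsin. The covered share of the window with romidepsin, 7.20%, was below the 12.0% that was the median of all gene windows.

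Fasl, the gene of the ligand of Fas, had no peak over the gene in either list. The nearest CM peak to its start lay 86737 bp away, near the far end of the neighbouring gene Suco. With romidepsin 2 peaks of 293 and 371 bp lay in the upstream flank, with folds of 2.35 and 2.45 and −log10 q values of 1.63 and 1.76. The nearer of them was 5189 bp from the start. They were lost where −log10 q had to reach 2 and were not among the 16419 strongest peaks. Fasl lacked a start peak in both lists and its receptor gene Fas had one in both, and the upstream sequences of the pair are shown for that reason. They are chr1:161788496-161788745 (minus strand) for Fasl and chr19:34290409-34290646 (plus strand) for Fas, with capitals again marking bases inside a CM peak.
Fasl: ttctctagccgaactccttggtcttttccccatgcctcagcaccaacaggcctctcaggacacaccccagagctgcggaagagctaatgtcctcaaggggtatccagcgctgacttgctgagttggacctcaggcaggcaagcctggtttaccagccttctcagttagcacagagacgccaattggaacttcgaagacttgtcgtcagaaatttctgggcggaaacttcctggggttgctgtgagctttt
Fas: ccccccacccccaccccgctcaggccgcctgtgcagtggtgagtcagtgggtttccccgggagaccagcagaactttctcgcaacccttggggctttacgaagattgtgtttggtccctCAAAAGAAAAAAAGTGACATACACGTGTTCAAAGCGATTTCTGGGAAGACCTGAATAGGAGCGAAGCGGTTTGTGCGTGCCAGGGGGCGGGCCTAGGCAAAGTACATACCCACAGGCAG
The Fasl sequence has no capitals, and the capitals of Fas take up the 119 bases nearest to the gene.

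Fas, which encodes the prototype death receptor on chromosome 19, had 3 CM peaks, of which the strongest sat at the start. It was 1016 bp long (34290528 to 34291543, fold 5.52, −log10 q 5.22) and ran from 131 bp upstream to 884 bp downstream of the start. The other two were 426 bp (fold 3.50) in the upstream flank and 501 bp (fold 3.70) within the gene. With romidepsin a peak of 11447 bp (34288029 to 34299475, fold 3.77) covered the start and was 11.3 times as long as the CM peak. It was the first of a row of romidepsin peaks over the 37129-bp gene, the last of which ended 23640 bp downstream of the start. The 9 further peaks were 482 to 891 bp long with folds of 2.31 to 2.58, and none of them overlapped a CM peak. The gene beyond the last of them held no romidepsin peak. Peaks covered 3.40% of the window in CM and 44.2% with romidepsin, and 30.5% among the 16419 strongest romidepsin peaks.

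Tnfrsf1a, the gene of the TNF receptor with a death domain, on chromosome 6, carried broad marking in CM. A CM peak of 3577 bp at the start (125348855 to 125352431, fold 6.93, −log10 q 7.69) was followed by one of 2633 bp (fold 4.64). Together they covered 41.9% of the gene. The start peak was higher in fold than 93.6% of the CM peaks and reached 868 bp upstream of the start, the farthest of the 7 genes with a CM start peak and a listed start. With romidepsin a single peak of 23784 bp (125341668 to 125365451, fold 3.98) covered the whole gene and reached the neighbouring genes Scnn1a and Plekhg6. Only 162 romidepsin peaks were longer. The covered share of the window was 19.0% in CM and 97.2% with romidepsin, the highest romidepsin share of the 10 genes.

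Tnfrsf1b, the gene of the TNF receptor without a death domain, on chromosome 4, had the longest and strongest CM peak of the 10 genes. The peak was 4651 bp long (145242237 to 145246887, fold 7.50, −log10 q 8.78), higher in fold than 98.3% and longer than 98.2% of the CM peaks. Like that of Tnf, it began close to the start, 17 bp upstream, and extended 4633 bp into the gene. A further 6 CM peaks lay within the gene and 1 in the upstream flank, with lengths of 410 to 1829 bp. The romidepsin peak at the start was 15316 bp long (145232853 to 145248168, fold 4.53), 3.29 times as long. It took in 4 CM peaks, the CM start peak among them. With this romidepsin peak, 6 romidepsin peaks overlapped the gene and covered 94.0% of it. Among all 37 romidepsin peaks without a CM peak over the 10 windows, the highest fold belonged to a peak of 3877 bp beyond the 3′ end of Tnfrsf1b (145199182 to 145203058, fold 4.19). That fold was higher than 97.3% of the romidepsin peaks, and the peak lay between Tnfrsf1b and Vps13d.

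The 250 bases before the start of Tnfrsf1b (chr4:145246871-145247120, minus strand) and of Tnfrsf1a (chr6:125349473-125349722, plus strand) show how differently the CM peaks of the 2 TNF receptor genes met their starts, with capitals as above.
Tnfrsf1b: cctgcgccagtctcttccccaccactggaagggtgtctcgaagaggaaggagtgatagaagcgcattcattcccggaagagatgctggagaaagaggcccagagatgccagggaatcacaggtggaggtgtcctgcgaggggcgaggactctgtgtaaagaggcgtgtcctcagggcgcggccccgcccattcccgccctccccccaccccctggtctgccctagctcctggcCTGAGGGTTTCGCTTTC
Tnfrsf1a: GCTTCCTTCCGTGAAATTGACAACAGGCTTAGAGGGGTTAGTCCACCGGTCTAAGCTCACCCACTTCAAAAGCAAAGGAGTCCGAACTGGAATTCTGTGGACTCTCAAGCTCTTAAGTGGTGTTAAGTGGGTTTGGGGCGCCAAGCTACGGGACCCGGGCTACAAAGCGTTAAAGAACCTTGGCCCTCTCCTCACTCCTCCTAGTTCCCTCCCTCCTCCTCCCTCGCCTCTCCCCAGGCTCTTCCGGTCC
Of these bases 17 lay inside a CM peak at Tnfrsf1b and all 250 at Tnfrsf1a, whereas romidepsin peaks covered all 250 at both.

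Tnfrsf10b, the gene of the TRAIL receptor on chromosome 14, had the shortest CM peak of the 10 genes. No start was listed for this gene, so both ends of its span were examined. The only CM peak, 335 bp long (69767420 to 69767754, fold 4.22, −log10 q 2.62), lay over the end at 69767472. It was shorter than all but 6.22% of the CM peaks. The romidepsin peak there was 2339 bp long (69766927 to 69769265, fold 3.36). In all 7 romidepsin peaks lay over the gene and covered 65.7% of it, against 1.67% in CM, and 6 of the 7 overlapped no CM peak. The covered share of the window was 0.907% in CM and 46.4% with romidepsin, the largest ratio of the 9 genes with a CM peak in the window (51.1). Most of this cover was made of weaker peaks: among the 16419 strongest romidepsin peaks the share was 6.33%.

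Fadd, the adaptor gene on chromosome 7, had 1 CM peak of 1737 bp (144580902 to 144582638, fold 4.73), from 197 bp upstream to 1539 bp downstream of the start. The romidepsin peak was 7300 bp long (144576958 to 144584257, fold 3.84), 4.20 times as long. It covered the whole 4119-bp gene and reached no other protein-coding gene. The other 3 romidepsin peaks of the window, of 293 to 387 bp, lay beyond the 3′ end of the gene and had folds of 2.26 to 2.40. The covered share of the window was 7.20% in CM and 34.4% with romidepsin.

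**Figure D3:**
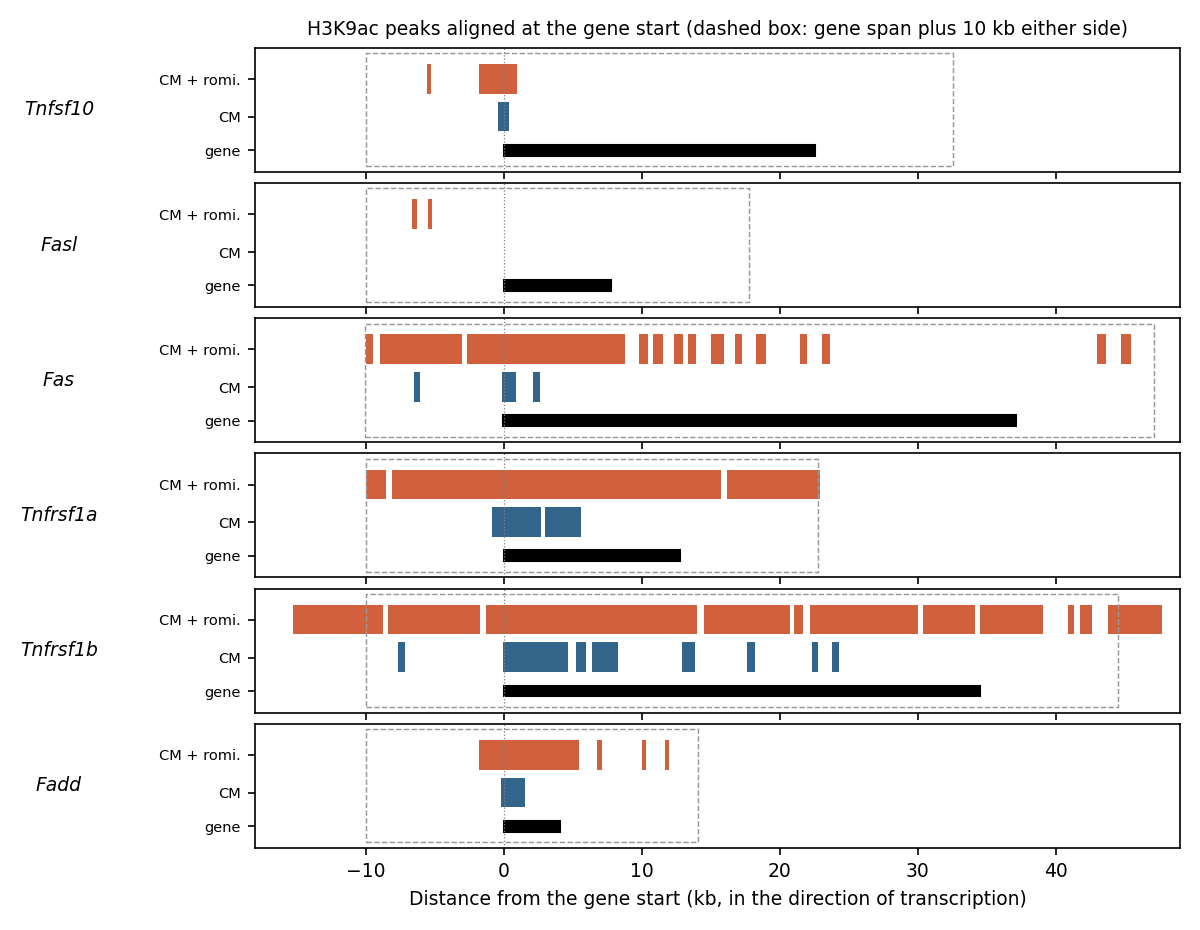
Peaks of both lists around 6 of the genes against the distance from the gene start in kb, in the direction of transcription, with the gene as a black bar and the window as a dashed box. A CM peak lies at each start except that of Fasl, and further CM peaks lie away from the starts of Fas, Tnfrsf1a and Tnfrsf1b. Romidepsin peaks cover most of the Tnfrsf1a and Tnfrsf1b windows. In Fas they continue as short peaks to 23640 bp past the start and leave the rest of the gene free. Fasl has no peak at its start in either list.

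Romidepsin peaks enclosed all 22 CM peaks of these windows from end to end, as they did 97.9% of the CM peaks of the whole list. A CM peak lay under 27.5% of these 51 romidepsin peaks, against 12.9% of the whole romidepsin list. The 14 romidepsin peaks that overlapped a CM peak had a median length of 6958.5 bp and folds of 3.36 to 4.68, and the 37 without a CM peak had a median length of 759 bp and folds of 2.14 to 4.19. Of the 2 sets, the peaks without a CM peak were shorter at the median.

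The density of CG dinucleotides before the starts did not order the genes by their start peaks. In the 250 bases before the start, the number of CG dinucleotides was 6 at Ltb and Tnfsf10, 7 at Fasl, 9 at Lta and Tnfrsf1a, 10 at Tnf, 11 at Fas, 12 at Tnfrsf1b and 19 at Fadd. The median was 17 over 8984 genes with a start peak in both lists, 7 over 2060 genes with one in the romidepsin list only and 2 over 6447 genes with none. Fadd was thus the only gene of the 9 with a listed start above the median of genes marked in both lists. Fasl, with no start peak, had one more than Ltb and Tnfsf10, which had start peaks in both lists.

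A few short motifs were searched in the same 250 bases as a description of these letters. The TATA box letters TATAAA, read on the gene's strand, were found at Tnf at positions -29 to -24, counted back from the start at 0, inside the capitals shown above. They were also found at Lta at positions -167 to -162, inside the romidepsin peak and outside any CM peak. The annotated Lta span reaches past the listed start (35205351) to 35205578, so this match lies within the span. The TATA box letters occur in 7.67% of the 21263 upstream sequences of protein-coding genes. A match to the κB consensus of NF-κB, searched on both strands, was found at Ltb as GGAAAGTCCC at positions -87 to -78, inside the CM peak, and such matches occur in 4.18% of the sequences. The AP-1 letters TGANTCA, searched on both strands, were found at Fas at positions -211 to -205, outside the CM peak and inside the romidepsin peak, and occur in 6.13%. The GC box letters GGGCGG, searched on both strands, were found at Tnf, Fasl, Fas, Tnfrsf1b and Fadd and occur in 42.6%. The ETS letters AGGAAGT, on either strand, were found at Tnf and Fasl and occur in 7.32%, and the CCAAT letters, on either strand, were found at Fasl and occur in 35.4%. A match says nothing of whether a factor is bound.

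The wider family was described by lists of 74 other genes. They are to be read against start peaks at 50.2% of all genes in CM, at 63% with romidepsin, and at 50.7% among the 16419 strongest romidepsin peaks. No start was listed for 16 of the 74, so both span ends were examined and their peaks may lie at either. Of the genes named from these lists, they include Tnfsf4, Tnfsf9, Tnfsf12, Cd40lg, Cd40, Nfkb1, Ikbkb and Tnfrsf22. Other ligands of the TNF superfamily had a start peak at 6 of 13 genes in CM and at 12 of 13 with romidepsin. The highest CM folds were those of Tnfsf14 (5.68), which encodes a further ligand of the lymphotoxin β receptor, Tnfsf9 (5.32), a costimulatory ligand gene, and Tnfsf12 (5.20), the TWEAK gene, and the highest folds among genes marked in the romidepsin list only were those of Tnfsf15 (3.36), Tnfsf4 (3.18), the OX40 ligand gene, and Tnfsf11 (2.67), the RANK ligand gene. Cd40lg, a ligand gene of activated T cells, had no start peak in either list. Among the 16419 strongest romidepsin peaks the count was 6 of 13, the same number as in CM. Where −log10 q had to reach 5, 1 of the 13 had a start peak in CM and 5 had one with romidepsin. The shares of all genes at that threshold were 30.5% and 46.3%.

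Other receptor genes of the family had a start peak at 10 of 24 genes in CM and at 17 of 24 with romidepsin. Relt (7.84), Tnfrsf21 (6.87), another gene of a death domain receptor, and Ltbr (6.58), the lymphotoxin β receptor gene, had the highest CM folds. Cd27 (3.38), Cd40 (3.18) and Tnfrsf19 (2.86) had the highest romidepsin folds among genes marked in that list only. A start peak was absent from both lists at 7 genes. Among the 16419 strongest romidepsin peaks the count was 11 of 24. Where −log10 q had to reach 5, 4 of the 24 had a start peak in CM and 8 had one with romidepsin. The shares of all genes at that threshold were 30.5% and 46.3%.

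The intracellular part of the pathway was marked in both lists. Adaptors, kinases and ubiquitin enzymes of the receptor complexes had a start peak at 26 of 27 genes in CM and at 27 of 27 with romidepsin. Traf6 (7.36), which encodes a ubiquitin ligase, Adam17 (7.27), whose product sheds TNF from the cell surface, and Birc2 (7.20), a gene of the inhibitor of apoptosis family, had the highest CM folds. Traf1, an adaptor gene, was the one with a start peak in the romidepsin list only (7579 bp, fold 3.43). NF-κB subunit and target genes had a start peak at 6 of 10 genes in CM and at 10 of 10 with romidepsin, with Nfkb2 (7.07), Nfkb1 (7.03) and Rel (6.94) highest in CM and Il6 (3.54), Il1b (3.52) and Cxcl1 (3.16) highest among those in the romidepsin list only. The romidepsin count of these 10 genes was 6 where −log10 q had to reach 5. Of the 74 genes, 48 had a start peak in CM and 66 had one with romidepsin. The CM counts of the other ligand and receptor genes lay near the share of all genes.

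Start peaks most like those of the 8 genes marked in both lists were sought among the 48 pathway genes with both, by distance between the pairs of log2 lengths over the 2 libraries. The nearest gene to Fadd was Ikbkb (1678 bp in CM and 7366 bp with romidepsin, distance 0.05). The nearest to Ltb was Tnfsf13 (2197 and 36690 bp, distance 0.17), whose romidepsin peak also covers Tnfsf12. The nearest to Fas was Cyld (878 and 11920 bp, distance 0.22), and to Tnf it was Map3k7 (2168 and 4448 bp, distance 0.35). The nearest genes to Tnfrsf1b, Tnfrsf1a, Tnfsf10 and Tnfrsf10b were Nfkbia (distance 0.27), Tnfaip3 (0.52), Tnfrsf22 (0.25) and Tnfrsf18 (0.24).

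**Figure D4:**
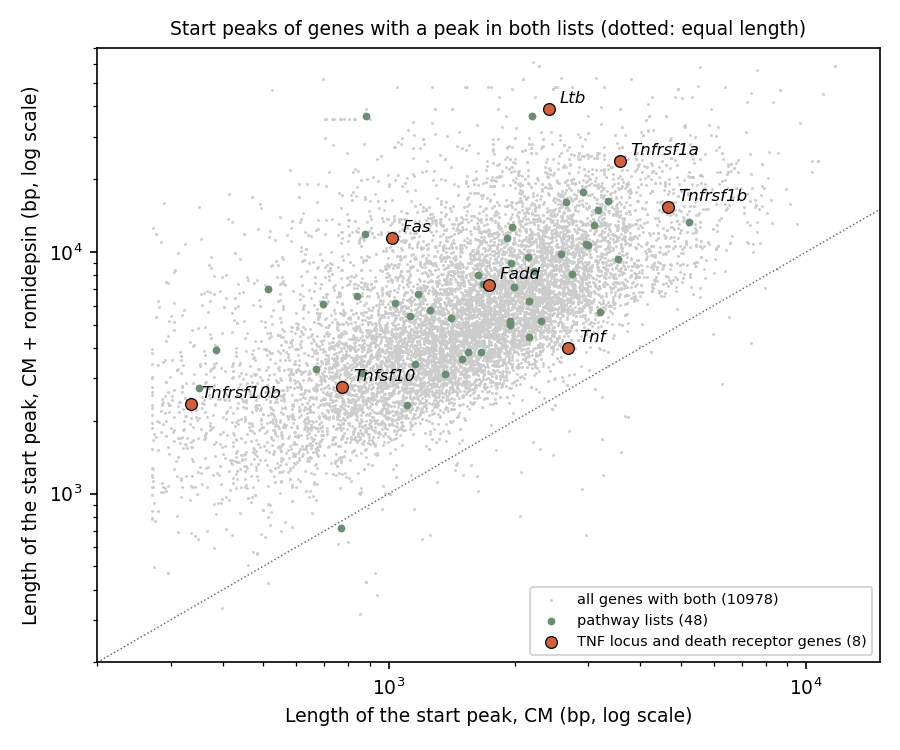
Length of the start peak in CM (horizontal) and with romidepsin (vertical), both in bp on log scales, for the 8 genes with both, 48 pathway genes and all 10978 genes with both. Tnf (2692 and 4002 bp) lies closest to the line of equal length among the 8 genes, and Ltb (2421 and 39028 bp) farthest from it.

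The label of the cells was set beside marker genes at their starts. Over all genes, start peaks were present at 50.2% in CM and at 63% with romidepsin. Monocyte and macrophage markers had a start peak at 8 of 8 genes in both lists, and neutrophil markers at 4 of 8 in CM and 6 of 8 with romidepsin. Markers of T and natural killer cells, which express Fasl and Lta, had one at 1 of 7 genes in CM (Cd4, fold 4.15) and at 4 of 7 with romidepsin, namely Cd4, Lck, Cd3d and Klrb1c. The other 3, Cd3e, Cd8a and Ncr1, had none in either list. B cell markers had a start peak at 1 of 8 genes in CM (Cd79b, fold 4.23) and at 6 of 8 with romidepsin. No start was listed for Cd4 or Cd79b, so both span ends were examined and their peaks may lie at either. Romidepsin start peaks were thus present at Lta and at some lymphocyte genes, but also at 63% of all genes. The part of other cell types in the peaks at Lta was not tested. In a bulk library, more cells with a marked gene and more mark per cell cannot be told apart.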

How the data were processed

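H3K9ac ChIP-seq peak lists of 2 immunoprecipitated libraries, 1 per condition, were analysed. The submitters' processing notes name the build mm10 and the tools Bowtie2 2.4.4, MACS2 2.2.7.1 and deepTools 3.5.1. Settings and the use of the input are not given in the sources used here, and read depth is unknown. For each broad peak the authors deposited a position, a score, a fold enrichment as a ratio, and the −log10 of p-value and q-value, which the peak caller averages over the region. Their use was limited to description, ranking and filtering inside 1 list.

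Genes were 21887 RefSeq protein-coding genes of GRCm38.p6. Starts and strand came from RefSeq upstream sequences for 79.9% of them, and both ends of the span were used for the others. A gene with several listed starts counted if any had a peak. Positions are 1-based, the minimum overlap was 1 bp, and the strongest overlapping peak by fold gave a gene's start values. Sequences printed stop where the annotated gene span begins. Overlap functions (Python 3.11.15, pandas 2.3.3) were tested on simulated peaks. Named genes were the 10 genes, their neighbours under a peak, and for each pathway list those with the 3 highest folds in CM, the 3 highest among genes marked with romidepsin only, unmarked genes where 5 or fewer, and those nearest in start peak length; of 2 such neighbours per gene the nearest is given. Of 32 markers 31 were matched. Vps13d, Suco and the markers named were chosen after their values were seen. The genes and lists were chosen with earlier results of these data known. Alternatives covered thresholds, equal numbers of peaks, merging, flanks and overlap rules.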

Additional observations from a re-analysis of the deposited data

How the results depend on the processing

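Of 246 recomputed values 207 stayed within 1.5 times the reported count, or within the counting interval for covered shares, and 39 did not. The interval took each base as independent although cover comes in whole peaks, so it is too narrow. The CM share of 9.86% at a fold of at least 3 fell outside it, so the 2 rules are not alike. Some values could not change. A cut to 16419 peaks leaves the CM list whole, and a stricter threshold cannot remove an absent call. The start calls of single genes held in 133 of 140 cases, and all 7 losses came where −log10 q had to reach 5. They were Tnf, Ltb, Tnfsf10, Tnfrsf10b and Fadd in CM, and Lta and Tnfrsf10b with romidepsin. At that threshold 4 genes had a CM peak in the window and 3 at the start, and the windows held 4 CM and 14 romidepsin peaks, covering 3.61% and 34.1%. With −log10 q required to reach 2 the windows held 13 CM and 32 romidepsin peaks, covering 8.20% and 49.2%. At a fold of at least 3 they held 21 romidepsin peaks, and 9.86% and 44.7% of the sequence were covered. With the romidepsin list cut to the size of the CM list, 17 romidepsin peaks covered 39.8%. After merging, 22 romidepsin peaks remained, and the shares were 11.0% and 58.1%. Without a flank there were 29 romidepsin peaks and shares of 16.1% in CM and 58.1% with romidepsin, with 5 kb shares of 11.9% and 56.2%, and with 20 kb 7.83% and 48.4%. The cause of these differences was not tested, beyond fewer peaks or other windows entering each setting. Each list is 1 library of unknown depth, so a weak peak missing from CM may lie under its detection limit. No paired analysis was possible because each condition has 1 immunoprecipitated library and no test was run.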
